A study of Rattus norvegicus with 4 samples.

Results

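The genes described here encode the translation initiation and elongation factors of the rat, the proteins that bring ribosome and mRNA together and then carry amino acids to the ribosome. They were chosen by symbol: every gene whose symbol starts with Eif1 to Eif6, Eef1 or Eef2 was taken, leaving out the kinases Eif2ak1 to Eif2ak4 and Eef2k and all pseudogenes. The rat gene table listed 69 such genes, and 54 of them had at least 1 probe on the array, 76 probes in all, among 16581 genes with a named probe. No array probe was matched here to Eef1a1l1, Eef1a1l2, Eef1akmt3, Eef1akmt4, Eif1l1, Eif2a, Eif3el1, Eif3k, Eif4a1l, Eif4e1b, Eif4e2, Eif4g1, Eif4g2l1, Eif5 or Eif5bl. The measurements come from NR8383, a macrophage line started from the lung lavage of a normal rat. All 4 samples are cultures of this line exposed for 4 h to TiO2 nanoparticles of the anatase and rutile type NM105 at 3 cm2 of particle surface per cm2 of culture, labelled as biological replicates 1 to 4 after 20 passages. The study set such cultures against cultures without particles, which are not analysed here, so nothing below is an effect of the particles. The differences described are differences between exposed cultures, and each array also carries its own labelling and hybridisation.

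Initiation in eukaryotes starts when eIF2, carrying GTP and the initiator tRNA, joins eIF1, eIF1A, eIF3 and eIF5 on the small ribosomal subunit. The eIF4 proteins recognise the cap of an mRNA and unwind its leader, and eIF5B joins the large subunit once the start codon is found. Elongation then needs eEF1A to deliver each aminoacyl-tRNA, the eEF1B subunits to reload eEF1A with GTP, and eEF2 to move the ribosome along. Cells regulate this machinery at a few well-known points: kinases that phosphorylate eIF2, the kinase complex mTORC1 acting on the eIF4E-binding proteins, and the kinase of eEF2. In macrophages these steps shape the production of inflammatory proteins.

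Many mRNAs of the translation machinery begin with a run of pyrimidines, the feature that places them under mTORC1, and the promoters of many widely expressed genes hold a binding motif of the ETS factors. The motif, and pyrimidine runs on either side of the transcription start, were counted in the RefSeq promoters of the GRCr8 assembly. These reach from 250 bases before to 50 bases after a transcription start and exist in the table used for 60 members, with 64 promoters. The letters CCGGAAG, on either strand, were present in 22 of 64 member promoters, or 34.4%. The share was 10.7% over the promoters of protein-coding genes and 21.7% over the promoters of genes detected on all 4 arrays, and among the members detected on all arrays it was 30.8%, 12 of 39 promoters. The subunits of eIF3 held the motif in 5 of 11 promoters, and it was not particular to them. Among the start codon and subunit joining genes it was present for Eif1a, Eif1ad, Eif1ax, Eif1b, Eif2a, Eif2d and Eif6. It was absent there for Eif1, Eif1l1, Eif5, Eif5b and Eif5bl, and absent from the promoters of the eEF1 genes and Eef2. The motif is shown in capitals below for the 5 eIF3 subunits. Each is given as 30 bases read in the direction of transcription, where CTTCCGG is the same motif on the other strand.

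Eif3d, chr7:111432851-111432880, minus strand: gctgtgacggaCTTCCGGttgggtctcgct
Eif3g, chr8:27709966-27709995, minus strand: ttctacacgggCTTCCGGtctttacccggg
Eif3i, chr5:147226900-147226929, minus strand: gccccagtcttCTTCCGGtcctactcacat
Eif3k, chr1:93397477-93397506, minus strand: cgtttctttttCTTCCGGtccttgagtact
Eif3m, chr3:111897205-111897234, minus strand: atcaggctgacCCGGAAGcggttgtgcgta

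In Eif3i and Eif3k the motif lies within 20 bases of the annotated start, and in Eif3d it lies further upstream than in the other 4. Uninterrupted runs of at least 8 C or T were sought within 20 bases of the start, on either side. Such a run was found in 17 of 64 member promoters, 26.6%, against 15.3% over protein-coding genes and 14.1% over genes detected on all arrays. Some runs end before the annotated start, as in Eif3i and Eif3k, and so lie outside the annotated mRNA. The count is therefore not one of mRNAs that begin with pyrimidines. The CTTCC of the ETS motif can be part of such a run, as it is in Eif3i and Eif3k. The runs of 3 abundant factors are shown in capitals because these mRNAs belong to the classical targets of mTORC1. The annotated first base comes just past the middle of each stretch. In Eef1b2 and Eif3f the run goes on past the end of the stretch, to a length of 15 and 14 bases.

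Eef1a1, chr8:88225055-88225084, minus strand: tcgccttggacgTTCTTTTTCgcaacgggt
Eef1b2, chr9:72074076-72074105, plus strand: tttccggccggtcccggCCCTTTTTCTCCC
Eif3f, chr1:172369047-172369076, plus strand: tcacgcccttccgttctagCCTCTCTCTTT

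Only 1 member promoter, that of Eif2a, had a C at the annotated first base followed by 4 pyrimidines, the strict form of the signal (1.56%, against 2.52% over protein-coding genes). The annotated starts were not measured in these cells, and a match of letters is a description of the window and no evidence that a factor binds there.

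The arrays were single-colour Agilent rat arrays with 58717 gene spots each, all on 1 slide and in 1 scan. Brightness differed between them: the intensity at the 75th percentile of the probes detected on all arrays was 1431 for replicate 1, 585 for the second, 767 for the third and 831 for the fourth, and no gene spot was saturated. A probe was counted as detected when over 50% of its spots were well above background by the scanner's own flag, and named genes detected per array ran from 5978 on replicate 2 to 7549 on replicate 1. Levels below are log2 intensities relative to that 75th percentile of the same array, so that 0 is the reference and 1 unit is a doubling. Values of different genes come from different probes and are not set against each other, and n is 4 cultures throughout. Macrophage markers were detected on all arrays for 10 of 10 genes, alveolar macrophage markers for 4 of 5, with Marco detected on none, and epithelial markers for 0 of 6. Among the 5 endothelial markers Pecam1, Cdh5 and Vwf were detected on all arrays, with mean levels of -2.52 ± 0.21, -5.35 ± 0.33 and 1.02 ± 0.39 (SD), and Kdr and Tek on none; T cell and B cell markers were detected on no array, and of the 5 fibroblast markers Col1a1 was detected on 1 array. How far a probe tells close paralogs apart, such as Eif1 and Eif1b, Eef1a1 and Eef1a2, Eif4a1 and Eif4a2 or Eif2s3 and Eif2s3y, was not tested.

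Most of the translation factor genes were detected in every culture. Of the 54 measured members, 44 were detected on all 4 arrays, or 81.5%, against 35.2% of all named genes. The eEF1 group, set by symbol, was detected with 6 of 6 measured members and eIF3 with 11 of 12. The count was 7 of 9 for eIF2 and its exchange factor eIF2B, and 10 of 13 for the cap-binding group. Per array, the number of members detected was 51 for replicate 1, 45 for replicate 2 and 49 each for replicates 3 and 4, so that the brightest array had the most and the dimmest the fewest. With the flag replaced by the 99th percentile of the negative control spots, 50 members were detected on all arrays. The share of all named genes under that looser rule is not given here, so this count has no background beside it.

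**Figure D1:**
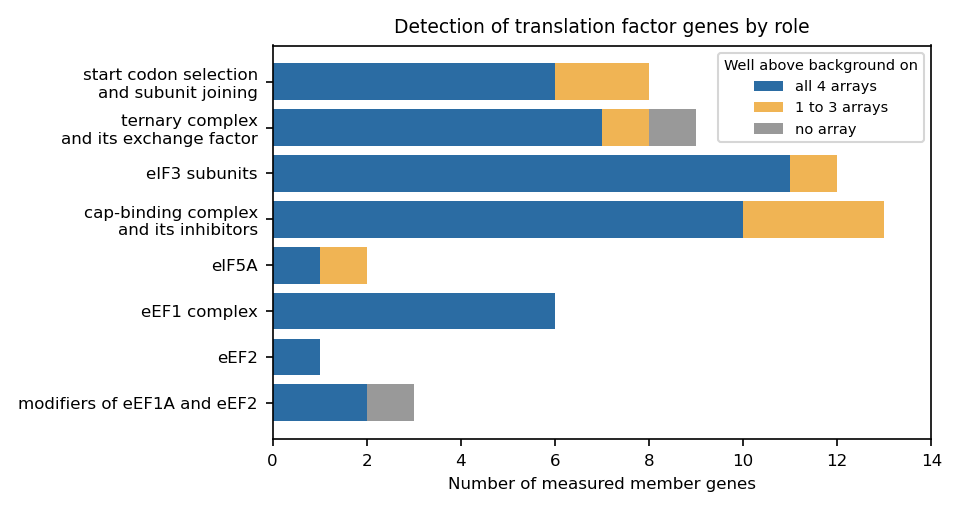
Number of measured translation factor genes in each role, split by how many of the 4 arrays had them well above background (every array, 1 to 3 arrays, no array). All 6 measured eEF1 genes and 11 of 12 eIF3 genes were detected on every array.

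The 10 members that were not detected everywhere were mostly dim, and most were missing from the dimmest array. Eif4e encodes the cap-binding protein itself, and neither of its probes was well above background by the scanner's flag on all arrays. The first gave intensities of 55.6, 7.39, 19.1 and 29.2 on replicates 1 to 4 and was detected on replicates 1 and 4. The other gave 32.1, 16.7, 30 and 14.8 and was detected on replicates 1 and 3. For comparison, the 99th percentile of the negative control spots lay between 5.07 and 5.96 on the 4 arrays. Both probes of Eif4e lay above that on every array. Eif3j, a loosely bound eIF3 subunit that helps fit mRNA into the small subunit, was measured at 91.4, 18.1, 36.5 and 40.1 and was missed on replicate 2 only. The same array missed Eif4enif1, which carries eIF4E into the nucleus, at 88.1, 18.1, 57.5 and 65.1. Eif1ax, an X-linked gene for eIF1A, was detected on replicates 1 and 3 with intensities of 88.1, 4.14, 24.4 and 17.3, and the related Eif1a on the same arrays with 27.8, 12.8, 22.5 and 16.7. The replicate 2 value of Eif1ax lies within the range of the negative controls. Eif2s3, the gamma subunit of eIF2 that binds GTP and the initiator tRNA, was detected on replicates 1 and 4 by 1 of its probes, at 29.2, 7.02, 14.1 and 23.2. Eif4ebp3, the least studied of the eIF4E-binding proteins, was detected on the same arrays at 27.6, 16.8, 17.7 and 28.1. These 7 genes were all detected on replicate 1, the brightest array, and none of them on replicate 2; the part of array brightness in these calls was not tested.

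The remaining 3 were different. Eif5a2, a tissue-restricted second gene for eIF5A, was above background on replicate 2 only, where 1 of its probes read 54.9 against 3.3 on replicate 1, 3.5 on replicate 3 and 3.64 on replicate 4. Its other probe read 4.14, 3.64, 3.75 and 3.9 and was detected nowhere, so the single high value rests on 1 spot of 1 probe. Eif2s3y, the Y-linked copy of Eif2s3, read 5.3, 4.24, 3.87 and 4.09, and Eef1akmt2, a lysine methyltransferase of eEF1A, read 3.21, 3.34, 3.41 and 3.64. Both stayed within the negative controls on every array.

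Among the start codon and subunit joining factors, 6 of 8 measured genes were detected on all arrays, with a median SD of 0.24 log2 units. Eif1 guards start codon fidelity and gave levels of 3.47, 3.74, 3.78 and 3.79 on replicates 1 to 4. The last 3 lay close together and replicate 1 stood below them, but under quantile normalisation the SD was 0.04 instead of 0.15 and replicate 2 was lowest. Its close relative Eif1b gave -2.17, -1.78, -1.48 and -2.11, with replicate 3 highest and replicate 1 lowest, an order kept under each of the other scalings tried. Eif6 keeps free large subunits from joining too early, and it gave 1.98, 2.54, 2.35 and 2.58, with replicate 1 lowest. Eif2d, an alternative factor that can deliver initiator tRNA, gave -0.07, -0.12, -0.06 and 0.08. Eif1ad, an eIF1A-like nuclear protein, gave -0.23, -0.38, 0.06 and -0.08. Eif5b, the GTPase of subunit joining, had the highest SD of the 44 detected members in the main scaling, at -3.68, -4.6, -4.85 and -5.04, with replicate 1 above the rest. The spread of Eif5b came to 0.6 (SD) and a 2.57-fold range. It was 0.19 (SD) after a different background correction (normexp), under which replicate 2 was highest. That correction starts from the median signals of the spots and adds an offset of 50 to every intensity. This probe read 112, 24.1, 26.6 and 25.3 on replicates 1 to 4. An offset of this size narrows the spread of dim probes by itself, so normexp cannot decide whether the spread held. With the 75th percentile over all probes, the median and quantile normalisation the SD of Eif5b was 0.55, 0.56 and 0.54. Replicate 1 was highest in each of these.

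The eIF2 heterotrimer and the 5 subunits of eIF2B, the exchange factor that phosphorylated eIF2 blocks, were measured almost completely. The alpha subunit gene Eif2s1, whose product the stress kinases phosphorylate, gave -0.32, -0.83, -0.36 and -0.16, lowest on replicate 2 and highest on replicate 4. The beta subunit gene Eif2s2 gave -0.42, -1.12, -1.07 and -0.62, with replicates 1 and 4 above replicates 2 and 3. The SDs of the 5 exchange factor genes ran from 0.06 to 0.24. Of them, Eif2b4 held at -3.44, -3.43, -3.5 and -3.35, an SD of 0.06, and Eif2b5, the catalytic subunit, gave -1.52, -1.34, -1.4 and -1.19. Eif2b2 gave 2.43, 2.19, 2.1 and 2.15, with replicate 1 highest, and Eif2b3, the other member of the catalytic part, gave -2.91, -2.8, -2.37 and -2.57, with replicate 1 lowest. The orders of Eif2b2, Eif2b3, Eif2b5 and Eif2s1 at both ends were the same under the other scalings. Eif2b1, part of the regulatory core that senses phosphorylated eIF2, gave -3.28, -3.6, -3.29 and -3.67.

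The eIF3 complex is the scaffold on which the small subunit assembles, and the SDs of its subunits differed. Eif3b and Eif3d, a core subunit and a cap-contacting subunit, gave 0.19, 0.12, 0.06 and 0.09 and 0.28, 0.21, 0.33 and 0.26, with SDs of 0.06 and 0.05. Eif3c gave 1.78, 1.72, 1.71 and 1.87, and Eif3h gave 1.53, 1.58, 1.68 and 1.58. These 4 genes each had an SD of 0.07 or less. Eif3e gave -0.79, -1.5, -1.36 and -0.75, with replicates 1 and 4 above replicates 2 and 3. The largest subunit gene Eif3a gave -2.46, -3.21, -2.77 and -2.79, lowest on replicate 2. Eif3m gave -1.0, -1.05, -0.56 and -0.43, but 3 low spots pulled down the mean of replicate 1. The medians of its spots were -0.65, -1.05, -0.54 and -0.43, with replicate 2 lowest. Eif3g, an RNA-binding subunit, ran the other way from Eif3e at -0.35, 0.27, 0.14 and -0.24, highest on replicates 2 and 3. Eif3f gave 2.74, 3.01, 2.7 and 2.7 and Eif3i gave 2.78, 3.15, 2.94 and 2.78, both highest on replicate 2. Eif3l remained between -0.25 and 0.05. The median SD of the 11 detected eIF3 genes was 0.15, from 0.05 for Eif3d to 0.39 for Eif3e.

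The cap-binding group includes the paralogs of the helicase eIF4A. Eif4a3, which works in the exon junction complex rather than at the cap, gave 1.91, 1.85, 2.02 and 1.9, an SD of 0.07. Eif4a1, the main helicase of initiation, gave -1.31, -1.61, -1.08 and -1.4 by its brighter probe. This probe was highest on replicate 3 and lowest on replicate 2 under every scaling tried. A second probe, at -2.01, -1.68, -1.09 and -1.53, was lowest on replicate 1. Eif4a2 gave -2.57, -3.85, -3.61 and -3.36, an SD of 0.56 and a 2.43-fold range, with replicate 1 standing above the rest. With normexp background correction the SD of Eif4a2 was 0.1 and replicate 4 was highest. Its probe read 241, 40.5, 62.6 and 80.7 on replicates 1 to 4, dim enough for the offset of 50 to narrow the spread by itself. Normexp also started from the median signals of the spots in place of the intensities used here. What changed the order was not tested. Normexp therefore cannot decide whether the spread and order of Eif4a2 held. With the 75th percentile over all probes, the median and quantile normalisation its SD was 0.49, 0.5 and 0.5. Replicate 1 was highest in each of these. The helicase cofactor Eif4h, read at 1 spot per array, gave 1.19, 1.28, 1.99 and 2.09, with replicates 3 and 4 above replicates 1 and 2. The SD of Eif4h was 0.47, and under normexp it was 0.58, with replicate 2 lowest instead of replicate 1. The other cofactor, Eif4b, gave 0.28, -0.03, 0.51 and 0.42, lowest on replicate 2.

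The eIF4E-binding proteins hold eIF4E away from eIF4G until mTORC1 phosphorylates them. Eif4ebp1 gave 1.45, 1.38, 1.16 and 1.27 and varied little, with an SD of 0.13. Eif4ebp2 gave -1.68, -1.19, -1.32 and -1.47, highest on replicate 2 and lowest on replicate 1 under every scaling tried. Of the scaffold proteins, Eif4g3 gave -3.96, -4.36, -3.79 and -3.83, and Eif4g2, which lacks the eIF4E-binding site and serves cap-independent initiation, gave 1.52, 0.89, 1.14 and 1.39. Both were lowest on replicate 2, although for Eif4g3 normexp placed replicate 1 lowest. Eif4e3, an atypical cap-binding protein, gave -3.67, -4.33, -4.06 and -3.93.

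The elongation factors were all detected. Eef1a1, the general form of eEF1A, gave 4.24, 4.08, 4.1 and 4.01, an SD of 0.1 that was 0.05 with the 75th percentile over all probes and 0.23 with quantile normalisation. Of the exchange subunits, Eef1b2 gave 3.3, 3.28, 3.48 and 3.48, Eef1d gave 3.82, 4.08, 4.17 and 4.14, and Eef1g gave 4.09, 4.49, 4.35 and 4.26. Eef2 gave 3.47, 3.67, 3.16 and 3.42, lowest on replicate 3 in all scalings. Eef1a2, the form known from skeletal muscle, heart and neurons, was above background on all arrays as well, at -2.41, -1.85, -1.69 and -2.13. It was highest on replicate 3 and lowest on replicate 1 under every scaling, while the muscle and neuron markers Myh4, Ckm, Acta1, Snap25 and Tubb3 were detected on 0 arrays. Eef1e1, placed in the eEF1 group by its symbol and part of the multi-synthetase complex, gave -2.55, -3.01, -2.2 and -2.75. Eif5a, which carries the modified amino acid hypusine and relieves stalled ribosomes, gave 2.49, 2.44, 2.42 and 2.24. The methyltransferase genes Eef1akmt1 and Eef2kmt gave -2.43, -2.35, -2.41 and -2.37 and -3.92, -4.07, -4.13 and -4.12. Eef1akmt1 had an SD of 0.04, and of 0.09 to 0.12 under the other scalings.

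**Figure D2:**
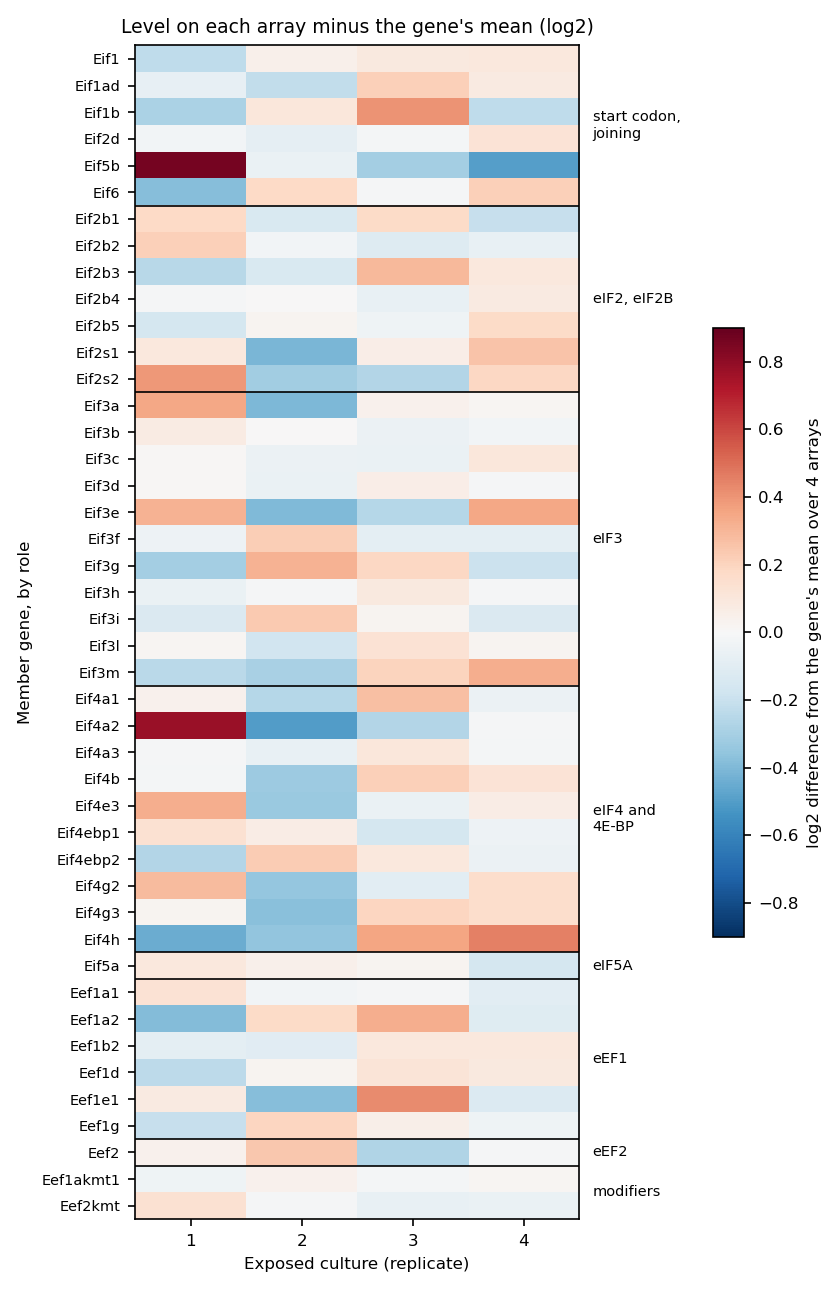
Level of each of the 44 detected members on each array minus that gene's mean over the 4 arrays (log2, colour), grouped by role. Eif5b and Eif4a2 stand out on replicate 1, and most other cells stay close to 0. Their pattern was not seen with normexp, whose offset of 50 itself narrows the spread of dim probes. Replicate 1 stayed highest for both with the 75th percentile over all probes, the median and quantile normalisation.

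The members' spread between cultures was close to that of the array as a whole. Their median SD over the 4 arrays was 0.196 log2 units, with the middle of the distribution between 0.11 and 0.288, against a median of 0.225 and a middle range of 0.156 to 0.319 over 5824 named genes detected on all arrays. The SD passed 0.5 in 2 of 44 members, Eif4a2 and Eif5b, and in 5.6% of named genes. Both members were read at 1 spot per array. The 20 members at or above the array's reference had a median SD of 0.147 (1407 named genes in that range: 0.179), and the 24 members below it had 0.266 (4417 named genes: 0.243). A share of 45.5% of members lay at or above the reference, against 24.2% of named genes. Each probe has its own brightness, so these shares do not compare expression between genes.

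**Figure D3:**
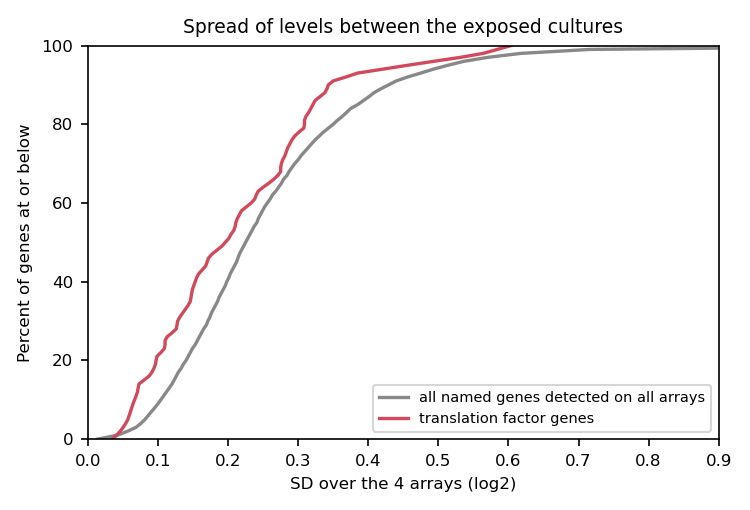
Percent of genes (vertical axis) whose SD of level over the 4 arrays is at or below the value on the horizontal axis (log2 units), for 44 translation factor genes and for all named genes detected on all arrays. The member curve lies to the left of the other over most of the range, with medians of 0.196 and 0.225.

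No array carried high or low values for the whole set. The highest value of a member was that of replicates 1 to 4 for 13, 7, 13 and 11 genes, and the lowest for 14, 18, 8 and 4. As shares, the lowest value was on replicates 1 to 4 in 31.8%, 40.9%, 18.2% and 9.09% of members, against 25.0%, 32.2%, 22.2% and 20.6% of named genes. The highest was there in 29.5%, 15.9%, 29.5% and 25.0% of members, against 37.8%, 28.0%, 19.1% and 15.1% of named genes. These counts moved with the scaling: the number of members lowest on replicate 2 was 11 with the 75th percentile over all probes, 12 with the median, 14 with normexp and 18 with quantile normalisation. Of the 44 members, 11 had the same highest and the same lowest array under all 4 other scalings: Eef1a2, Eef1akmt1, Eif1b, Eif2b2, Eif2b3, Eif2b5, Eif2s1, Eif3a, Eif4a1, Eif4b and Eif4ebp2. Of these, Eef1a2, Eif2s1, Eif3a and Eif4b were read at 10 spots per array and the others at 1 spot. Rescaling cannot show an error of a single spot. A second probe of Eif4a1 was lowest on another array, replicate 1. In 2 members, Eif1 and Eif3f, a single culture lay far from the other 3 for the gene's range, as it did in 6.03% of named genes. Between pairs of arrays, the median absolute difference of a member was smallest for replicates 3 and 4, at 0.14, and largest for replicates 1 and 3, at 0.27. Differences of 2-fold or more involved replicate 1 alone: Eif4a2 against replicate 2, Eif4a2 and Eif5b against replicate 3, and Eif5b against replicate 4, where 5.6%, 3.42% and 2.76% of named genes differed as much.

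Whether a difference between arrays exceeded the error between spots of an array could be tested where a probe was printed at more than 1 position. This held for 23 detected members, 20 of them with 10 spots on each array and 3 with 2, among 871 named genes. Spots share the RNA of their array, so limma's moderated F test with Benjamini-Hochberg adjustment over 1594 probes compares these 4 arrays only. With 1 array for each culture, culture, labelling and hybridisation cannot be told apart in it, and it says nothing about the exposure. At an adjusted p threshold of 0.05 in limma and a range of at least 2-fold between the highest and lowest array, 0 of 23 members were called, against 4.25% of named genes (20 members had an unadjusted p under the same threshold, none with a 2-fold range). With the fold minimum lowered to 1.5, 7 of 23 members were called, a share near the 25.7% of named genes. With no fold minimum the count was 20 of 23, a share near the 84.6% of named genes. The other 3 were Eif2d, Eif3b and Eif3d, with limma adjusted p of 0.117, 0.491 and 0.154. Technical error within an array was small, a median spot SD of 0.105 for members and 0.0961 for named genes. Most members differed measurably between arrays but by little, as did most of the named genes tested. The median range was 1.27-fold over the 23 members, from 1.08 to 1.82, and 1.36-fold over the 871 named genes.

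The 7 members past 1.5-fold were 3 subunits of eIF3, 2 subunits of eIF2, 1 form of eEF1A and 1 scaffold protein. Eif3e had a 1.69-fold range (limma adjusted p = 1.77e-18), Eif3a a 1.68-fold range (limma adjusted p = 9.3e-14) and Eif3m a 1.53-fold range (limma adjusted p = 0.000319). Eif2s2 had a 1.63-fold range (limma adjusted p = 1.51e-19) and Eif2s1 a 1.58-fold range (limma adjusted p = 1.21e-05). Eef1a2 had a 1.65-fold range (limma adjusted p = 1.37e-10). The tested probe of Eif4g2, printed at 2 positions, gave -0.58, -1.44, -1.09 and -1.25, a 1.82-fold range (limma adjusted p = 0.000944). Leaving out replicate 1 brought the 7 down to 3 (Eif2s1, Eif3e, Eif3m), and leaving out replicate 2 brought them down to 4 (Eef1a2, Eif2s2, Eif3e, Eif4g2). Rescaling changed the set as well. Eif3a was not past 1.5-fold with the 75th percentile over all probes, quantile normalisation or normexp. Its SD of 0.31 was 0.08 under normexp, whose offset of 50 itself narrows the spread of dim probes. The Eif3a probe read 260, 63.1, 113 and 120 on replicates 1 to 4. Eif2s2 was lost and Eef1g and Eef2 were gained with the 75th percentile over all probes, Eif2s1 was lost and Eef2 gained with quantile normalisation, and Eif3m was lost with normexp. Eif3e was past 1.5-fold in each of these settings and without each single replicate.

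Single spots lay far below the rest in 2 of these members. On replicate 2, Eif2s1 had spots at -1.63 and -1.65 while the other 8 lay between -0.74 and -0.56, and both low spots were printed in the last rows of the array, at rows 381 and 383 of 384. On replicate 1, Eif3m had 3 low spots, at -2.18, -1.95 and -1.71, all within columns 1 to 30, while the other 7 lay between -0.66 and -0.5. Over the 969 probes printed at 10 positions, spots at least 0.8 below their probe's median made up 4.99% of spots in columns 1 to 30 of replicate 1, against 0.744% in the interior of that array, and 4.69% of spots in the last 10 rows of replicate 2, against 0.0541% in its interior. With the median of the spots in place of their mean, a setting chosen after seeing these values, 6 of the 7 stayed past 1.5-fold. Eif2s1 dropped to a 1.41-fold range. The range of Eif3m runs from replicate 2 to replicate 4 and was 1.54-fold with medians, while replicate 1 moved from -1.0 to -0.65.

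**Figure D4:**
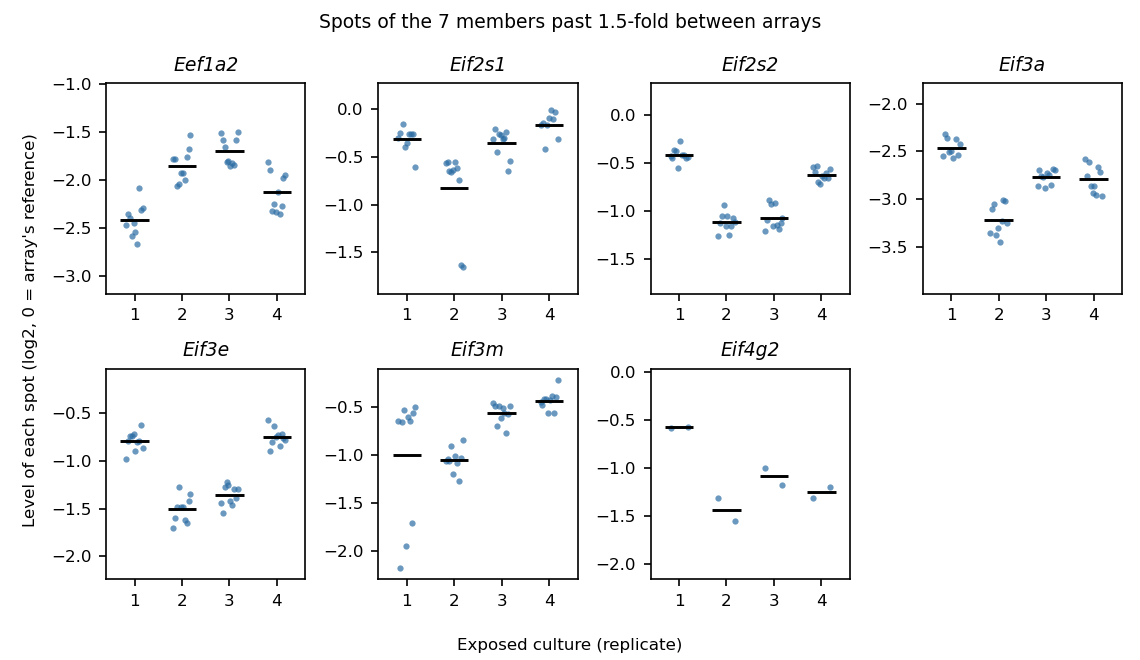
Level of every spot (points, log2, 0 = the array's reference) and their mean (bars) on each array for the 7 members past 1.5-fold. Spots of Eif3e and Eif2s2 separate replicates 1 and 4 from replicates 2 and 3, whereas 2 low spots of Eif2s1 on replicate 2 and 3 low spots of Eif3m on replicate 1 pull their means down.

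Different probes for the same gene allowed a second check of the patterns over the arrays, since each has its own sequence and place. In 10 members at least 2 probes were detected on all arrays. After each probe was centred on its own mean, the largest disagreement on any array was 0.16 as a median over these members and 0.27 over 861 named genes. The disagreement reached 1 log2 unit in 0 of 10 members, against 3.48% of named genes, and 0.5 in 1, against 19.6%. Eif6 agreed best, at 0.07, its second probe giving 1.85, 2.29, 2.16 and 2.35. Eef1g, with 3 probes, agreed within 0.11, and Eif3e within 0.13, where the second probe gave -3.5, -4.4, -4.17 and -3.66 and again set replicates 1 and 4 above replicates 2 and 3. The 4 probes of Eif4g2 differed by up to 0.47, yet 3 of them were lowest on replicate 2; the fourth, at -1.01, -1.8, -1.91 and -1.57, was lowest on replicate 3. For Eif4a1 the first probe gave -1.31, -1.61, -1.08 and -1.4 and the second -2.01, -1.68, -1.09 and -1.53, both highest on replicate 3 but 0.48 apart. Eif3h was the exception past 0.5, with a steady bright probe and a dim one at -3.66, -4.85, -3.85 and -4.41.

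**Figure D5:**
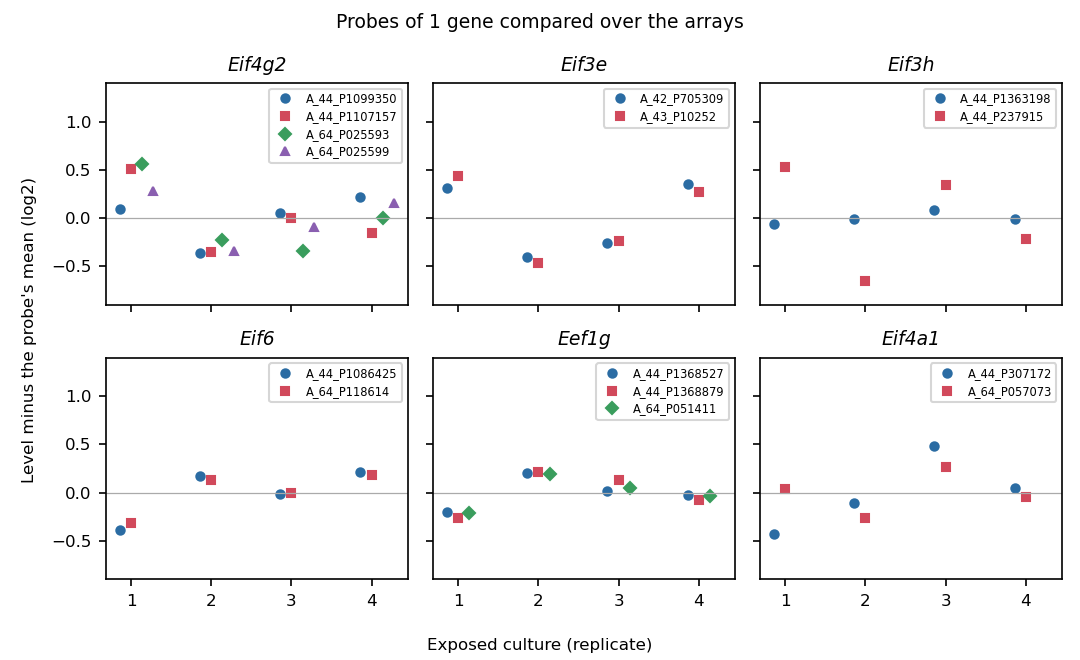
Level of each probe minus that probe's mean over the 4 arrays (log2, vertical axis) for 6 members with several detected probes. The probes of Eif6, Eef1g and Eif3e follow each other within 0.13, and those of Eif3h differ by up to 0.64.

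The genes that act on these factors were measured alongside. Of 46 genes in 6 lists, 43 had a probe. Every array detected 31 of them, 8 were found on some arrays only, and 4 were found nowhere. Of the eIF2 kinases, Eif2ak1, the heme-regulated kinase, was detected on all arrays at -0.71, -1.19, -1.14 and -1.35; Eif2ak3 and Eif2ak4 were each detected on 1 array and Eif2ak2, the kinase that senses double-stranded RNA, on none. Ppp1r15a, which directs the phosphatase to eIF2 under stress, gave 0.71, 0.82, 0.55 and 0.42, and its constitutive relative Ppp1r15b gave -3.01, -3.94, -3.26 and -3.43. The list of mTORC1 and cap signalling was detected on all arrays for 10 of 12 measured genes, Mtor itself and the eIF4A inhibitor Pdcd4 on 1 array each. Within that list Tsc1 had the widest spread, at -4.52, -3.47, -3.92 and -3.63, and Eef2k, the kinase that stops eEF2, gave -3.28, -3.37, -3.4 and -3.72. Both enzymes that make hypusine on eIF5A were detected, Dhps at -2.15, -2.42, -2.14 and -2.41 and Dohh at 3.23, 3.72, 3.36 and 3.44. Among the enzymes for diphthamide, the modified histidine of eEF2, Dph1, Dph2 and Dph3 were detected on all arrays and Dph5 on none. Termination and recycling factors were detected for 7 of 8 measured genes, poly(A)-binding proteins and partners for 3 of 4, and mitochondrial translation factors for 3 of 6, with Tufm, the mitochondrial counterpart of eEF1A, at 1.84, 1.92, 1.56 and 1.53.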

How the data were processed

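All 4 arrays of 1 group were read. Per the file headers, the authors scanned them and extracted spot intensity with Agilent Feature Extraction 11.0.1.1; the deposited processed intensity is already background-corrected, and the deposited flags for detection and outliers (other values) were used as given. Outlier spots were left out of levels. Genes were named by matching the array's accessions to a RefSeq table of GRCr8, which named 46.3% of 45598 probes. Levels are log2 intensity minus each array's 75th percentile over the probes detected on all arrays. A gene takes its brightest detected probe. Probes with at least 2 spots entered a moderated F test between arrays (limma 3.58.1, R 4.3.3, thresholds 0.05 and 2-fold). The test was also run on simulated data with independent errors between spots. Those data lack low spots tied to a place on the array, so that run does not cover them. The text names every measured member. Members and lists were chosen with earlier results of these data known. Alternatives were other scalings, normexp on median signals with offset 50, other detection rules, and leaving out each replicate. The number of arrays limits precision.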

Additional observations from a re-analysis of the deposited data

Results flagged for a closer look

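In 2 of the 44 detected members 1 culture stood apart from the other 3, by the gap to its nearest neighbour as a share of the gene's whole range. For Eif1 this share was 0.864: replicate 1, at 3.47, lay below the others, which ran from 3.74 to 3.79. Under quantile normalisation replicate 2 was lowest for Eif1 and the SD was 0.04 instead of 0.15. For Eif3f it was 0.851: replicate 2, at 3.01, lay above the others, which ran from 2.7 to 2.74. Chance alone gives about 1 such gene in 20, and 6.03% of all named genes with a level were set apart in this way.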

How the results depend on the processing

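The count of members detected on all arrays, 44, ranged from 44 to 50 over the alternatives. The related genes, 31, rose to 35 above negative controls. The share of all named genes under the rule with negative controls is not given. The median SD of members, 0.196, was 0.216 with the 75th percentile over all probes, 0.148 with normexp and 0.239 with no filter on detection. It ranged from 0.173 to 0.213 when 1 replicate was left out. The normexp offset of 50 narrows the spread of dim probes by itself. The median level of members, -0.06, was 5.11 with the 75th percentile over all probes, 1.99 with the median of detected probes and -0.59 with the mean over probes, and ranged from -0.09 to 0.17 when 1 replicate was left out, the highest without replicate 2. These changes of the percentile, the median and replicate 2 shift all named genes by 5.17, 2.05 and 0.22, since they move the reference. The count past 2-fold was 0 with the 75th percentile over all probes, quantile normalisation, normexp, no filter and each left-out replicate, and 7 or 20 with the fold minimum at 1.5 or absent. The count of members with disagreeing probes was 0, and 1 at 0.5 log2 units. The count past 1.5-fold, 7, was 7, 6 and 5 with the 75th percentile over all probes, quantile normalisation and normexp, over partly different genes (Eef2 gained in the first and second, Eif3a lost in all 3), and 3 to 6 when 1 replicate was left out; these and the spot medians were chosen after seeing the data. No paired analysis was possible because all samples belong to 1 group. Spots of 1 array are technical repeats, and levels near the negative controls, as for Eif4e, are limited by signal over background.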
